A study of Mus musculus with 3 samples.

Results

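Perforin, granzyme and other cytotoxic granule genes were examined in naive CD4 T cells: Prf1, Gzma, Gzmb, Gzmk, Gzmm, Srgn, Ctsw, Nkg7 and Klrd1, 9 of the 55536 gene entries in the deposited tables. The genes were chosen by name, with their levels in these libraries already known (Prf1 well above the granzymes), so the levels are a description and carry no test. The cells were naive T cells, CD4-positive with the alpha-beta receptor and labelled thymus-derived, and came from a single B6.SJL-Ptprca Pepcb/BoyJ male at 5 months of age, and polyA RNA was sequenced. The strain is an otherwise C57BL/6 line that carries the Ptprc allele of SJL mice. All 3 libraries are technical replicates of this 1 animal and form 1 group, so each SD (n = 3) is the spread between technical libraries and nothing can be compared between conditions or animals. Totals over genes were 14800852 to 18170786 expected counts (reads assigned to a gene by a model, so not always whole), and levels are given in TPM, reads scaled by transcript length and library.

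Cytotoxic lymphocytes kill by releasing granules into the contact with a target cell. Perforin, the product of Prf1, forms pores in the target membrane, and granzymes, serine proteases, enter and start cell death. Serglycin, encoded by Srgn, is the proteoglycan core on which granule proteins are packed. Ctsw encodes cathepsin W, a cysteine protease of cytotoxic lymphocytes, Nkg7 encodes a granule membrane protein, and Klrd1 encodes CD94, which pairs with NKG2 receptors on natural killer and CD8 T cells. Helper T cells of the CD4 lineage in their naive state, before contact with antigen, are not known for killing.

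The annotated start of the Prf1 transcript that took most reads (below) lies within 3 bases of the start in RefSeq, and the 300 bases around that start are shown with those of both starts of Srgn, the most abundant of the genes, and of Gzmb, which was near 0. The windows are from RefSeq on GRCm38.p6, read 5′ to 3′ on the strand of the gene, 250 bases before to 50 after the start. Capitals mark exact matches on either strand to 1 of 6 motifs: TGTGGT (RUNX), CCGGAAG (ETS), AGGTGTGA (T-box), TGANTCA (AP-1), TTCNNNGAA (STAT) and TGACGTCA (CRE).
Prf1, chr10:61297586-61297885, plus strand: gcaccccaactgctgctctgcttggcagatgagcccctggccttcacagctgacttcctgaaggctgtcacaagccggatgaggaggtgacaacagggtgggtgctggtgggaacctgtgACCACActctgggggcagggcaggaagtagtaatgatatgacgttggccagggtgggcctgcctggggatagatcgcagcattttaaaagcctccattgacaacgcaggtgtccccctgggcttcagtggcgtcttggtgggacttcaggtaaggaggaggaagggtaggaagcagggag
Srgn proximal, chr10:62507708-62508007, minus strand: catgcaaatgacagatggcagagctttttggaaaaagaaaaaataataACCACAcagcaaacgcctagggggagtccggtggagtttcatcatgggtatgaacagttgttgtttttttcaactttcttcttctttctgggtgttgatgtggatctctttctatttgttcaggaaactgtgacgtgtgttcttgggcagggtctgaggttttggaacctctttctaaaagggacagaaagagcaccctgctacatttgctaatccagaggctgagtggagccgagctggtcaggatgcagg
Srgn distal, chr10:62527396-62527695, minus strand: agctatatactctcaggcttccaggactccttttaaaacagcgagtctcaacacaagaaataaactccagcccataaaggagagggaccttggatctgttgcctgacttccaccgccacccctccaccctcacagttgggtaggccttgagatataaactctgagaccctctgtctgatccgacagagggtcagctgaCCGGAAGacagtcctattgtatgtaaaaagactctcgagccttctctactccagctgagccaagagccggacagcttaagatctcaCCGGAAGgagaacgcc
Gzmb, chr14:56262285-56262584, minus strand: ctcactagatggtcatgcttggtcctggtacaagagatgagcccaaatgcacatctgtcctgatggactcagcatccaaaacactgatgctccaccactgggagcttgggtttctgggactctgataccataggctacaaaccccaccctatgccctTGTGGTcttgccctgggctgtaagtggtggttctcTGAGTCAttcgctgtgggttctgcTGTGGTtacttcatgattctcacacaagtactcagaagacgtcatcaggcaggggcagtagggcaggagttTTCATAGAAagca

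RefSeq windows were found for 7 of the genes, 9 windows in all; Ctsw and Klrd1 had no entry. The RUNX letters occurred in 6 of the 9 windows, against 16.8% of all 32851 windows, and the windows with a match included that of Prf1 and that of Gzmb. Gzmb held these letters at 2 places, and its window was also the 1 of 9 with the AP-1 letters (7.81% of all windows). The STAT letters were in 3 windows (8.30% of all), those of Gzmb, Gzmm and Nkg7. The ETS letters were in the distal Srgn window alone, at 2 places (8.86% of all), the T-box letters in that of Nkg7 alone (1.28% of all), and the CRE letters in none (1.79% of all). No overlap between matches of different motifs occurred in the 4 printed windows. Windows of genes at very different levels, Srgn, Prf1, Gzma and Gzmb, thus held the RUNX letters. A match describes the sequence and is no measurement of binding.

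Prf1 stood at 55.7 ± 5.95 TPM, far above every granzyme gene and close to Ctsw, which was higher in every library. Of the 9 genes, 5 were detected, meaning at least 1 TPM in every library: Srgn, Ctsw, Prf1, Klrd1 and Nkg7. The same share over all gene entries was 21.4% (11902 of 55536), and over the 22028 protein-coding genes it was 44.6%. Gzmm, Gzmb, Gzma and Gzmk missed the minimum.

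Prf1 (ENSMUSG00000037202.6, chromosome 10, 61297833 to 61304680, plus strand) had 57.3, 49.1 and 60.6 TPM in libraries 1, 2 and 3, from 1162, 1266 and 1457 expected counts. Library 2 was the lowest and libraries 1 and 3 lay close together. Its mean was higher than that of 85.1% of protein-coding genes. The gene total of 3885 counts has an exact Poisson 95% interval of 3764 to 4009, which covers counting error only.

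Among the granzyme genes, Gzmm (ENSMUSG00000054206.2, chromosome 10, 79689020 to 79695261), which encodes a granzyme known from natural killer cells, had 1.13, 0.720 and 0.320 TPM in libraries 1, 2 and 3, from 12, 10 and 4 counts. Gzmb (ENSMUSG00000015437.5, chromosome 14, 56258838 to 56262260), the aspartate-cutting protease of activated killer cells, had 0.50, 0.06 and 0.42 TPM, from 6, 1 and 6 counts. Gzma (ENSMUSG00000023132.8, chromosome 13, 113093825 to 113100981), a trypsin-like granzyme, had 0.700 TPM from 5 counts in library 1 and 0 counts in libraries 2 and 3, where up to 3 counts or 0.303 and 0.331 TPM are allowed. Library 1 alone carried Gzma reads. Gzmk (ENSMUSG00000042385.14, chromosome 13, 113171608 to 113225908), another trypsin-like granzyme, had 0.140, 0.110 and 0.230 TPM, from 1, 1 and 2 counts, all below the limit of 3 counts. The ranges of these 4 genes overlapped in each neighbouring pair of their order.

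Of the other genes, Srgn (ENSMUSG00000020077.14, chromosome 10, 62493833 to 62527451, minus strand) had 975, 1052 and 1046 TPM in libraries 1, 2 and 3, a mean above that of 99.5% of protein-coding genes. Ctsw (ENSMUSG00000024910.5, chromosome 19, 5465043 to 5468507, minus strand) had 65.4, 60.5 and 60.6 TPM, from 673, 808 and 740 counts. The lowest Ctsw value, 60.5 in library 2, lay under the highest of Prf1, 60.6 in library 3, so their ranges overlapped. In every library Ctsw was the higher: 65.44 against 57.34, 60.5 against 49.06 and 60.64 against 60.59 TPM in libraries 1, 2 and 3. Klrd1 (ENSMUSG00000030165.16, chromosome 6, 129591782 to 129598775) had 10.5, 15.4 and 10.5 TPM, from 66, 118 and 79 counts, with library 2 above the other libraries. Nkg7 (ENSMUSG00000004612.9, chromosome 7, 43437073 to 43438249) had 2.58, 2.71 and 2.51 TPM, from 16, 22 and 14 counts. The ranges of Srgn and Ctsw, of Prf1 and Klrd1, of Klrd1 and Nkg7, and of Nkg7 and Gzmm did not overlap.

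**Figure D1:**
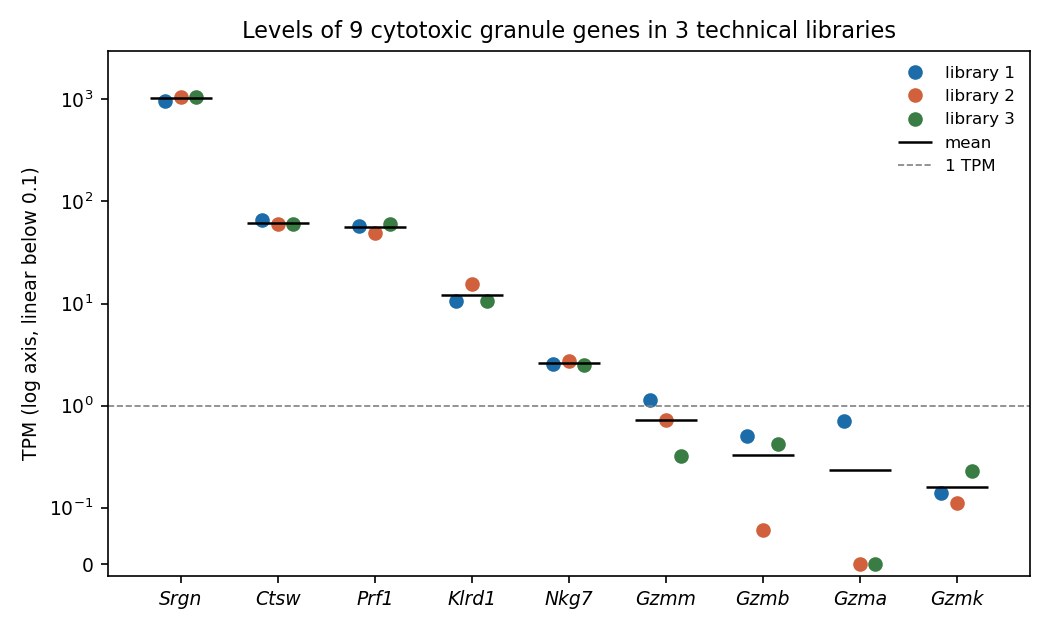
TPM (log axis, linear below 0.1) of the 9 genes in each technical library (points) with the mean of the 3 libraries (line). Srgn lies near 1024 TPM, Ctsw and Prf1 lie together near 60, and Gzmm, Gzmb, Gzma and Gzmk have means below the dashed line at 1 TPM.

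Prf1 exceeded 6 of the other 8 genes. On the log2(TPM + 0.1) scale, Prf1 exceeded Gzmb by 7.24 ± 0.90 and Gzmm by 6.21 ± 0.86, and these values depend on the pseudocount because the granzyme counts are few. The pooled length-scaled ratio of Prf1 to Gzmb was 177 (exact Clopper-Pearson 95% interval 103 to 332), and that of Prf1 to Gzmm was 78.9 (53.8 to 121). Ratios to Gzma and Gzmk, which had 5 and 4 counts in total, were 288 (123 to 887) and 348 (136 to 1278). These ratios are unstable: the mean Gzmk level was 0.383 TPM by posterior means in place of 0.16. The log2(TPM + 0.1) ratio to Gzmk then fell from 7.77 to 6.64, and that to Gzma was 8.12, 6.85 by posterior means and 9.09 without library 1, which holds all Gzma reads. Prf1 exceeded Klrd1 by 2.21 ± 0.47 and Nkg7 by 4.36 ± 0.21. Srgn was above Prf1, at a log2 ratio of Prf1 to Srgn of -4.20 ± 0.19. For Prf1 to Ctsw the log2 ratio was -0.16 ± 0.15. Their pooled length-scaled ratio was 0.893 (0.848 to 0.942), an interval that covers counting error only. The log2 ratio turned to 0.80 on expected counts with no length correction and to 0.52 on the counts of the older annotation.

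The reads counted for Prf1 were shared with no other annotated gene. In GENCODE M21, no exon of another gene on either strand overlapped a Prf1 exon. The 1 gene within 10 kb was Rpl27a-ps1, a processed ribosomal protein pseudogene 5150 bases downstream on the same strand, to which 0, 1.16 and 3.49 counts were assigned. Farther out, Adamts14, a secreted metalloprotease gene 24395 bases upstream on the opposite strand, had 2.58 ± 0.331 TPM, and Pald1, 14976 bases downstream on the opposite strand, had 0 counts in every library (up to 3 allowed in each). These 3 neighbours were named after their values were seen.

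The read length that the effective lengths imply is 50 bases, since length minus effective length was 49. No window of 50 bases of any Prf1 transcript occurred, on either strand, in a transcript of another gene (0 of 2532 windows), and the count was also 0 for each of the other 8 genes. With windows of 36 bases, 1 Prf1 window, 14 Gzmb windows (all in its relative Gzmc) and 8 Srgn windows occurred elsewhere. The search covered annotated transcripts; the genome outside them was not analysed here. The authors' estimator gave a posterior SD of 0 reads for the gene count of Prf1 in every library, meaning that no Prf1 read was shared with another gene entry. The same held for all 9 genes, 5 of which had at least 30 counts, against 44.7% of the 13075 genes with at least that many.

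Of the 19 genes within 10 kb of any of the 9, exons of 1 overlapped: Fibp, which encodes a binding protein of fibroblast growth factor, shared 9 of 1887 exon bases with Ctsw, end to end on opposite strands. Fibp had 58.7 ± 2.22 TPM, close to the level of Ctsw. Whether counting used strand is not given in the sources used here. The 9 shared bases are fewer than the 50 of a read, and the posterior SD of Ctsw was 0. Both values concern annotated sequence only, and whether reads of Fibp were counted for Ctsw was not tested. Other neighbours with a mean of at least 1 TPM were Ccdc85b beside Ctsw (5.79 ± 0.299 TPM), the ubiquitin-conjugating enzyme gene Cdc34 and the basigin gene Bsg beside Gzmm (68.1 ± 4.10 and 133 ± 12.4), the electron transfer flavoprotein gene Etfb beside Nkg7 (37.2 ± 9.14) and the retromer gene Vps26a beside Srgn (50.2 ± 5.09). Gzmm, at or below 1.13 TPM in every library, thus lay between genes above 60 TPM on its own strand. Cdc34 ended 622 bases upstream and Bsg began 9230 bases downstream. Whether any Gzmm reads came from Cdc34 was not tested. The genes nearest to Nkg7 were Lim2, 1077 bases away, and Cldnd2, 2533 bases away on the other side, both at 0 counts in every library, and Etfb lay farther out, at 5834 bases. Klre1, the neighbour of Klrd1 and another natural killer receptor gene, had 0 counts in every library.

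Most Prf1 reads were assigned to Prf1-202. Both annotated transcripts carry the same coding sequence, 536 bases in one exon and 1126 bases in the next. Prf1-202 (2474 bases) begins with a noncoding exon of 22 bases at 61297833 to 61297854, joins the first coding exon at 61299911, and ends at 61304680. Prf1-201 (1968 bases) begins 1968 bases downstream, at 61299801, reads through 110 bases ahead of that splice site, and ends at 61304086, 594 bases short of the end of Prf1-202.

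Prf1-202 took 87.3%, 78.1% and 86.4% of the Prf1 TPM in libraries 1, 2 and 3 (83.9% ± 5.05), and Prf1-201 took 12.7%, 21.9% and 13.6%. Expected counts were 1042, 1037 and 1296 for Prf1-202 and 120, 229 and 161 for Prf1-201. The posterior SD of each split was 26.4, 40.3 and 29.7 reads. The deposited intervals of TPM were 39.1 to 45.7, 30.2 to 36.7 and 42.1 to 48.5 for Prf1-202, so that of library 2 lay below the others. For Prf1-201 they were 3.36 to 9.13, 6.29 to 13.2 and 4.64 to 10.3, and all overlapped.

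Of the 2425 windows of 50 bases in Prf1-202, 613 were not in Prf1-201: 594 at the 3′ end and 19 across the first splice junction. Thus 96.9% of the sequence that marks Prf1-202 lies in its longer 3′ end. Prf1-201 had 107 windows of its own, all at its start. Most of the sequence that tells the transcripts apart thus lies where Prf1-202 ends, and a smaller part lies where Prf1-201 starts. Which start goes with the longer end was not tested. Positions of single reads were not analysed here.

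**Figure D2:**
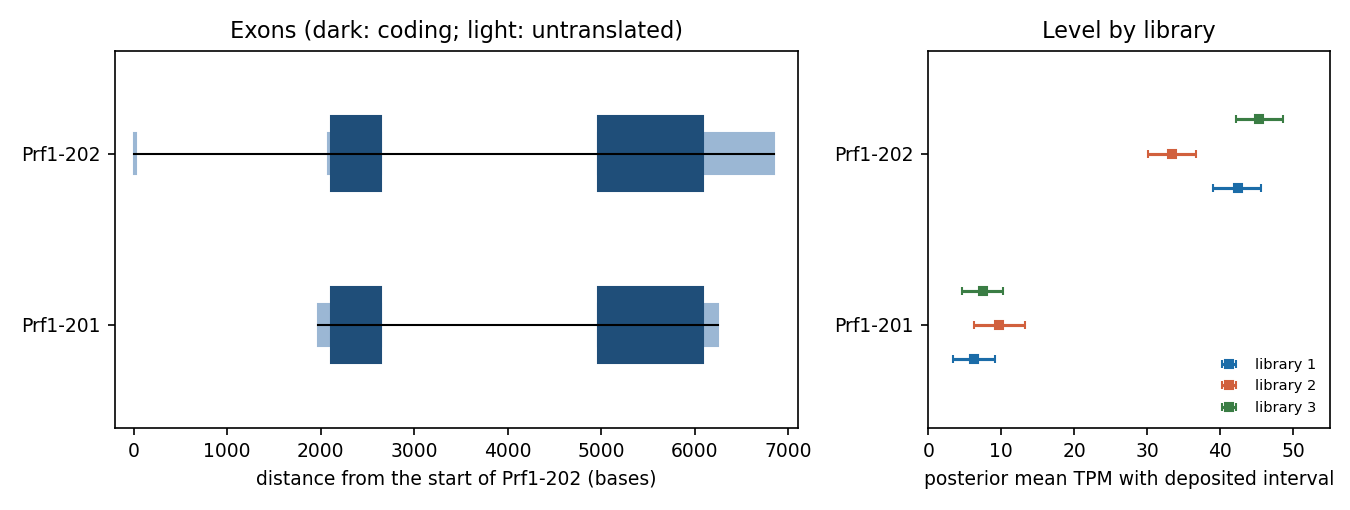
Left, exons of the 2 annotated Prf1 transcripts by distance in bases from the start of Prf1-202, with coding parts dark and untranslated parts light. Right, posterior mean TPM of each transcript in each library with the interval deposited beside it; all Prf1-202 intervals lie above 30 TPM and all Prf1-201 intervals below 14.

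The leading Srgn transcript was Srgn-201, with 97.4% ± 0.611 of the gene's TPM, and Srgn-204, which begins at the distal start, had 2.16% ± 0.334. Srgn-201 held 0 windows of its own, so its share is set by what the other 5 transcripts do not take, whereas Srgn-204 held 667. Ctsw was split more widely: its coding transcript Ctsw-201 had 58.3% ± 4.52, with 6 windows of its own, and its 4 transcripts annotated as retained introns together had 39.5%, 37.7% and 40.8% in libraries 1, 2 and 3. For Klrd1, Klrd1-202 had 60.5% ± 7.47 with 5 windows of its own, and the retained-intron transcript Klrd1-204 had 34.7%, 32.5% and 34.8%. Over 6125 detected protein-coding genes with such a transcript, the median share of retained introns was 14.2% (quartiles 5.28% and 29.7%). The Klrd1 share and the summed Ctsw share lay above the upper quartile. In the Ctsw sum, Ctsw-202 and Ctsw-203 had 14.0% and 15.4%. Ctsw-204 and Ctsw-206 held 0 windows of their own, with 0%, 0.82% and 10.5%, and 9.55%, 8.91% and 0.06% in libraries 1, 2 and 3. The place of Ctsw depends on counting Ctsw-204 and Ctsw-206. The Klrd1 split depends on the estimate. Klrd1-202 had 39.4% by posterior means and 71.0% of the expected counts, and Klrd1-204 had 28.6% and 25.1%. The quartiles were computed from the maximum-likelihood shares only, so they give no reference for these values.

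Nkg7 had too few reads for a stable split: Nkg7-201 took 69.0%, 70.6% and 19.9% in libraries 1, 2 and 3, and the retained-intron transcript Nkg7-202 the rest. By posterior means Nkg7-201 had 32.9% ± 9.27. Leading transcripts of the granzyme genes were Gzmm-201, Gzmb-201 (the only annotated one), Gzma-201 and Gzmk-203, which is annotated for nonsense-mediated decay. Gzmk-203 rests on 4 reads, and by posterior means it had 41.0% of the Gzmk TPM in place of 100%.

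**Figure D3:**
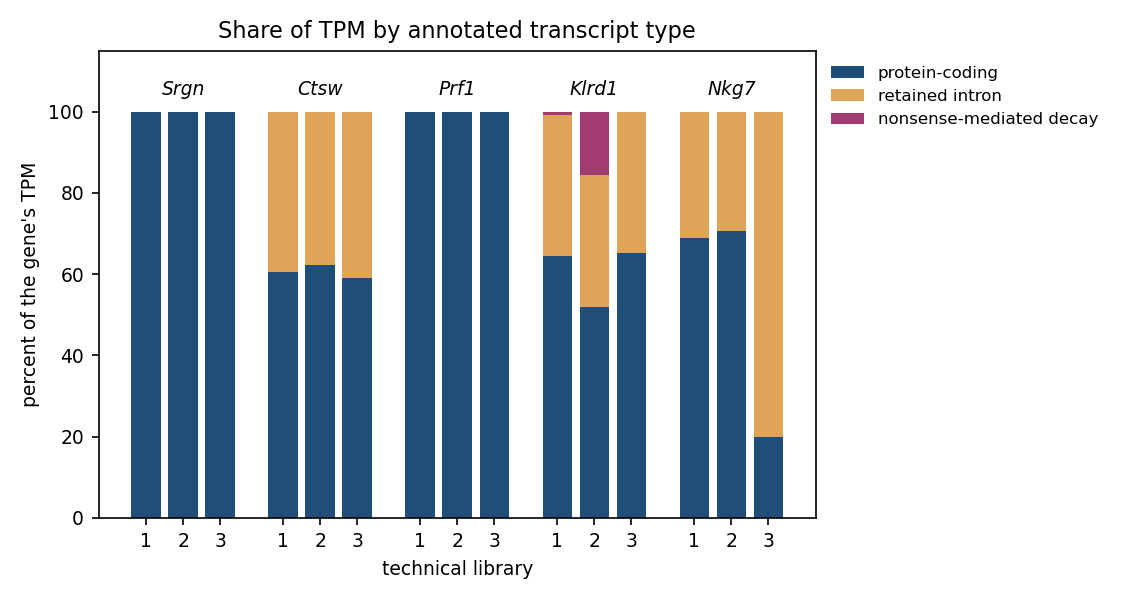
Percent of each detected gene's TPM in transcripts annotated as protein-coding, retained intron or nonsense-mediated decay, per technical library (1 bar each). Srgn and Prf1 are protein-coding throughout, while Ctsw and Klrd1 show retained-intron shares of 37.7% to 40.8% and 32.5% to 34.8%; Nkg7 rests on 14 to 22 reads.

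A second count table, on the older GENCODE M4 annotation, held fewer reads for most of the genes. Prf1 had 729, 796 and 885 of these counts, or 62.7%, 62.9% and 60.7% of its expected counts. Over 10709 genes with at least 30 expected counts the median was 51.5% (quartiles 33.7% and 68.0%), so the Prf1 share lay between the median and the upper quartile. The tables were made separately, so the older counts are no subset of the expected counts and the percent is a ratio of 2 counts. For Klrd1, Nkg7 and Ctsw the older counts came to 70.3%, 71.2% and 75.4% of the pooled expected counts. For Srgn they came to 9.63%, from 888, 911 and 881 counts. Among 207 genes whose TPM lay within a factor of 2 of that of Srgn, the median was 10.1% (quartiles 4.27% and 18.1%). On the older counts, without length correction, Srgn and Prf1 came to similar totals of 2680 and 2410. Over all genes the percent was lower at high levels, with a median of 55.4% at 10 to 100 TPM and 4.61% at 1000 TPM or more. The older table thus held relatively fewer reads for abundant genes such as Srgn.

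**Figure D4:**
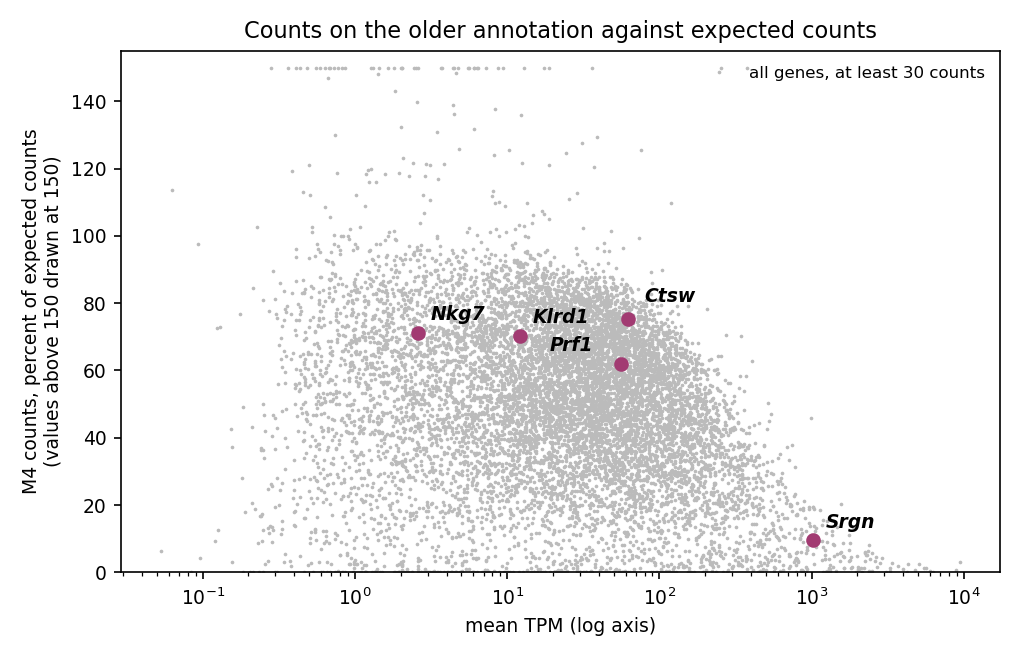
Counts on the older annotation as a percent of expected counts (y axis, values above 150 drawn at 150) against mean TPM (log x axis); grey points are genes with at least 30 expected counts. Prf1, Klrd1, Nkg7 and Ctsw lie between 62.0% and 75.4%, and Srgn lies at 9.63% among other genes of high TPM.

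Technical libraries were compared by a chi-square test of homogeneity on rounded expected counts, given TMM-scaled library sizes. Benjamini-Hochberg adjustment was over the genes that averaged 10 counts or more per library. Of these, 40.0% (5238 of 13090) were called at an adjusted p under 0.05, and so were 3 of the 5 members tested, Prf1, Srgn and Klrd1. The share called was higher among deep genes: among genes averaging at least 1000 counts, as Prf1 and Srgn do, 71.6% (2756 of 3850) were called, so these calls do not set the members apart. Scaled counts of Prf1 were 1308, 1192 and 1389 in libraries 1, 2 and 3 (highest 1.17 times the lowest, adjusted p = 0.00134). For Srgn they were 8563, 9943 and 9208 (1.16 times, adjusted p = 3.03e-21), and for Klrd1 74.3, 111 and 75.3 (1.5 times, adjusted p = 0.0173). Ctsw (adjusted p = 0.388) and Nkg7 (adjusted p = 0.557) were not called, and Gzma, Gzmb, Gzmk and Gzmm were too low to enter. Without library 2 the call held for Srgn alone and for 14.7% of all genes (1903 of 12917), with adjusted p = 0.349 for Prf1 and 0.974 for Klrd1. Without library 3 Prf1 had adjusted p = 0.0684 (27.6% of all genes called), and without library 1 all 3 members were called (36.8% of all genes). On the older counts the chi-square test called 0 of the 5, with 2 at an unadjusted p under 0.05, where 18.9% of all genes (1895 of 10013) were called. That table is less deep, at 5160325 to 5816158 counts per library, so the test has less power there. The adjusted p of Prf1 ranged from 5.89e-05 to 0.349 over the alternatives.

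Most genes of the granule machinery were detected. Of 16 genes for granule biogenesis, docking and release, 15 were detected, where the share over all protein-coding genes was 44.6%. The median over the list was 31.1 TPM, against 0.357 over all protein-coding genes. Over the detected genes alone it was 32.2 TPM in the list and 31.4 among all detected protein-coding genes, so their level was an ordinary one for a gene with reads. Lamp1, a lysosome membrane protein, had 158 ± 15.6 TPM, Stxbp2 (Munc18-2), which assists granule fusion, had 152 ± 8.10, and the vesicle SNARE gene Vamp8 had 97.4 ± 9.12. Of 12 genes for granule proteases and their inhibitors, 10 were detected (median 30.4 TPM, or 43.5 over those detected), led by the chaperone calreticulin gene Calr at 300.1 ± 17.8 and the lysosomal protease genes Ctsd at 209 ± 9.93 and Ctsb at 166 ± 25.6. Most of these genes also serve lysosomes and secretion in other cells.

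Other granzymes were at or near 0, with 0 of 6 detected (median 0.0250 TPM), where the share over all protein-coding genes was 44.6%. Gzmc had 1.02 ± 0.322, Gzme 0.0767 ± 0.0681 and Gzmd 0.05 ± 0.0866 TPM, and Gzmf, Gzmg and Gzmn had 0 counts. These clustered paralogs can share reads. Of 12 transcription factor genes of cytotoxic lymphocytes, 9 were detected, against the same 44.6%. The list median was 29.4 TPM, or 34.6 over those detected, against 31.4 among all detected protein-coding genes. The highest were the cytokine-signalling factors Stat5b at 273 ± 23.1, Stat5a at 162 ± 8.67 and Stat4 at 128 ± 6.05, which T cells use widely. The other factors of this list differed in level, and they are named after their values were seen. Id2 had 92.2, Runx3 34.6, Hopx 34.3, Notch1 24.5 and Prdm1 4.79 TPM, all detected. Tbx21, which encodes T-bet, had 0.290 ± 0.147, Zeb2 0.117 ± 0.108 and Zfp683, which encodes Hobit, 0.05 ± 0.0436 TPM, all undetected, and Eomes, which was detected, had 2.49 ± 0.315 TPM. Among death ligands and effector cytokines 5 of 11 were detected (median 1.2 TPM), close to the 44.6% of all protein-coding genes. In this list lymphotoxin β, encoded by Ltb, had 762 ± 137, the death ligand gene Fasl had 50.1 ± 13.5, close to Prf1, and Lta had 20.1 ± 2.01 TPM. The undetected genes, given by name for completeness, were Ccl5 at 1.203 TPM, below 1 TPM in library 3, Xcl1 at 0.360, Ifng (interferon γ) at 0.237, Ccl3 at 0.0967, Ccl4 at 0.0633 and Csf2 at 0 counts. Library 2 was the lowest for Fasl and for Ltb, at 36.1 and 606 TPM. Genes of other lists, such as Lamp1, Vamp8 and Ctsb, were also lowest there, while Stxbp2 and Calr were highest there. This order thus does not set Fasl or Ltb beside Prf1.

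Partners of Klrd1 and natural killer receptors were mostly not detected, with 3 of 21 at 1 TPM or more (median 0.0267 TPM) and 10 at 0 counts. The share detected was 44.6% over all protein-coding genes and 21.4% over all gene entries. The NKG2 genes, named here as partners of CD94 with their values known, had 0.200 TPM for Klrc1 and 0 counts for Klrc2 and Klrc3. The highest were Hcst, which encodes the DAP10 adaptor used by T cells as well, at 262 ± 31.0, Cd160 at 2.14 ± 0.665 and the Fc receptor gene Fcgr3 at 1.41 ± 0.409 TPM. Klrd1 at 12.1 ± 2.83 TPM thus stood above each listed receptor with which CD94 pairs.

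**Figure D5:**
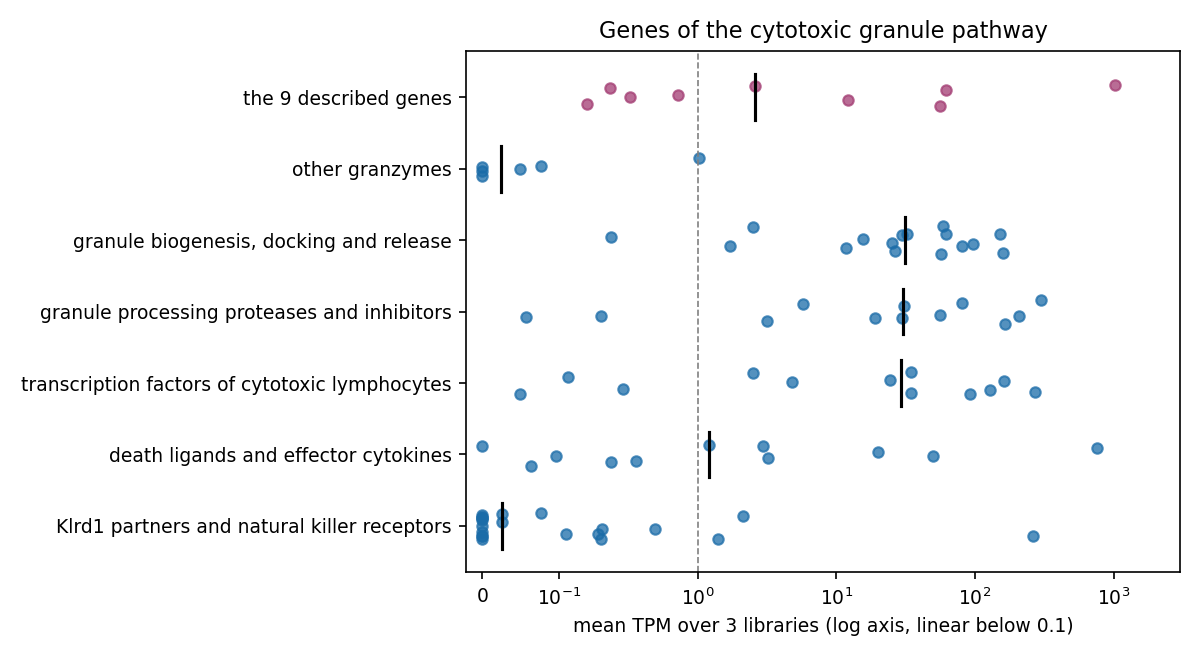
Mean TPM over the 3 libraries (log x axis, linear below 0.1) of the 9 genes and of 6 lists of the pathway; each point is a gene, the bar is the list median and the dashed line is 1 TPM. Medians lie at 29.4 to 31.1 TPM for the release, processing and transcription factor lists and below 0.03 for other granzymes and natural killer receptors.

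Markers of other cells were set beside these levels. All 5 CD4 T cell markers were detected, with a summed level of 3671 to 4136 TPM. Most of that sum came from Trac at 2475 and Cd3e at 761 TPM, which are not confined to CD4 cells. Cd4 had 444, Cd40lg 223 and Zbtb7b 9.85 TPM. Of 5 natural killer markers 0 were detected, Klra8 had 0 counts and the sum was 0.380 to 1.40 TPM. This list leaves out Klrd1 and Nkg7, which were detected. CD8 T cell markers summed to 16.9 to 17.4 TPM (1 of 2 detected), of which Cd8a had 0.140 ± 0.0458 and Cd8b1 17.0 ± 0.235. Summed levels were 5.09 to 5.46 TPM for γδ T cells (2 of 3 detected), 36.3 to 37.5 for regulatory T cells (3 of 3), 2.06 to 3.35 for myeloid cells (1 of 4), 0.180 to 0.570 for mast cells (0 of 4, Mcpt4 and Fcer1a at 0) and 0.330 to 2.41 for platelets (0 of 3, Ppbp at 0). The part of each of these cell types in the Prf1 level was not tested. In bulk RNA, few cells with much Prf1 RNA and many cells with little cannot be told apart.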

How the data were processed

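PolyA-selected RNA of 3 technical libraries was measured, all of 1 group. Per the labels and the text deposited with the files, reads were placed on mm10, genes and transcripts followed GENCODE M21, and a separate table followed the older GENCODE M4; which tools were used is not stated there. The authors deposited expected counts and TPM, each as maximum-likelihood and posterior mean, and the isoform percent of each transcript. The markers of 1 further cell type are not reported here. Intervals of TPM, a signal with no stated level, were deposited too. Whole-number counts on M4 were deposited by the authors for 22457 genes. Entries that name no gene held 0.247%, 0.200% and 0.325% of expected counts and were left out.

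The members, the gene lists and the tests were chosen with earlier results of these data known. All 9 members, every Prf1 transcript, the leading transcript of the others, overlapping genes and neighbours within 10 kb at 1 TPM or more, and the 3 highest genes of each list are named. Expected counts were rounded for count tests. Scaling used TMM from edgeR 4.0.16 under R 4.3.3, and libraries were tested by chi-square across all genes (scipy 1.17.1), after the test was tested on simulated data. Symbols were found for 55450 of 55536 identifiers. A count of 0 allows up to 3 counts; intervals and limits cover counting error only, since reads carry no molecular identifiers. Alternatives were posterior means, older counts, DESeq2 1.42.0 size factors, library totals, other minimums, pseudocounts, windows and each library left out.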

Additional observations from a re-analysis of the deposited data

How the results depend on the processing

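Prf1 was at 48.2 TPM by posterior means, and it stayed above 6 of the other genes or more under each alternative. The number of members detected stayed within 1.5 times of 5. Calls between technical libraries depended on the libraries and the table. On M4 counts, with a smaller total per library, 0 members and 1895 of 10013 genes were called. Leaving out each library in turn gave 1 to 3 members and 1903 to 4875 genes, lowest without library 2. The log2 ratio of Prf1 to Ctsw reversed to 0.80 on expected counts with no length correction and to 0.52 on M4 counts. With a minimum of 0.1 TPM, 1 of the other granzymes and 6 of the natural killer receptors were detected; with a minimum of 10 TPM, 1 of those receptors and 3 of the death ligands and cytokines were. Neighbours at 1 TPM numbered 2 within 5 kb and 20 within 50 kb, since the windows differ in size, and 3 members shared a window of 36 bases with another gene. Where not stated, the cause was not tested. Depth limits Gzma, Gzmb, Gzmk, Gzmm and the Nkg7 split. No paired analysis was possible because all libraries form 1 group.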
